A study of Mus musculus with 44 samples.

Results

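The comparison described here is T cell transfer colitis against non-inflamed colon in mice that all received an MK2 inhibitor. It rests on 12 of the 44 RNA-seq libraries of the series: all 6 libraries labelled as inflamed with inhibitor and all 6 labelled as non-inflamed with inhibitor, chosen by their labels alone. Every mouse was a C57BL/6 animal without a working Rag1 gene, so neither group could make T or B cells of its own. Inflamed mice had been injected intraperitoneally with 400000 naive T cells, which per the labels produces colitis in 8 to 12 weeks. Non-inflamed mice had been injected with 200000 unsorted T cells, so the groups differed in the kind and number of T cells as well as in inflammation. All mice of both groups were dosed with the MK2 inhibitor ATI-450 at 3 mg/kg, dosed again 16 h later and killed 90 min after the second dose. The labels give the tissue as intestine, and the protocol names both distal colon and ileum. The labels give sequencing batches 1, 3 and 4: the inflamed group had 2, 3 and 1 libraries in them and the non-inflamed group had 4, 1 and 1. The same contrast in mice given vehicle, with 5 inflamed and 5 non-inflamed libraries in the fit, was used only to test whether the effect of inflammation differed between treatments.

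In transfer colitis, naive CD4+ T cells placed in a host without lymphocytes meet gut bacteria, expand and turn into cytokine-producing effector cells. The colon fills with T cells, macrophages and neutrophils, the crypts lengthen and the surface epithelium loses mature cells. MK2, the kinase encoded by Mapkapk2, is switched on by p38 MAP kinase and in turn phosphorylates tristetraprolin, the Zfp36 product, a protein that binds AU-rich stretches in cytokine transcripts and marks them for decay. Blocking MK2 is known to lower production of tumour necrosis factor and other cytokines whose transcripts carry such stretches. The data show what inflamed colon looked like in mice given an inhibitor of this kinase. They hold no measure of MK2 activity.

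Total counts per library were 6.78 to 20.7 M, with the 4 libraries of batch 3 at 6.78 to 7.16 M. Levels are in CPM, counts scaled to a common effective library size. Where 3 CPM values stand for a group, they are the lowest, the median and the highest of its 6 libraries. The first principal component of log2 CPM held 46.8% of the variance, and the inflamed libraries lay at 52 to 76.4 on it. The non-inflamed libraries lay at -52.7 to -85.1, except replicate 5 at -8.74, which is the only non-inflamed library of batch 3. That library held several transcripts of inflammation far above the other 5 non-inflamed libraries. Transcripts of other tissues varied between libraries. The pancreatic acinar list summed to 14400, 12500 and 4640 CPM in inflamed replicates 3, 5 and 6, against 719 to 1290 CPM in the other 3 inflamed libraries and 1710 to 4330 CPM in the non-inflamed ones. That list includes Zg16 and Sycn, also on the goblet cell and colonocyte lists, so its sums need not measure pancreas alone. The sum of inflamed replicate 6 was close to the highest non-inflamed one. Skeletal muscle markers summed to 1250 and 409 CPM in inflamed replicates 5 and 3 and to 1070 CPM in non-inflamed replicate 5. Keratins and other squamous markers of the anal canal summed to 154 to 462 CPM in inflamed replicates 1, 5 and 6 and to 376 and 310 CPM in non-inflamed replicates 5 and 6. Rag1 itself, of which a null allele can still give transcript, was at 0.961, 1.33 and 2.12 CPM in inflamed libraries and 1.48, 2.13 and 3.33 CPM in non-inflamed ones. Adipose markers summed to 2410 CPM in non-inflamed replicate 1 and to 293 to 623 CPM in the other 11 libraries. Y-linked transcripts summed to 150 to 185 CPM in inflamed replicates 3 and 5 and non-inflamed replicates 3, 5 and 6, and to under 10 CPM in the rest. Small intestinal enterocyte markers summed to 261 to 501 CPM in inflamed and 627 to 1130 CPM in non-inflamed libraries, while distal colon position markers summed to 1130 to 1990 CPM in inflamed and 2110 to 5210 CPM in non-inflamed libraries. The tissue is called colon here. Hoxb13, a homeobox gene of the most distal gut, was at 106, 156 and 276 CPM in inflamed libraries and 271, 442 and 514 CPM in non-inflamed ones.

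Inflamed and non-inflamed colon differed across a large part of the transcriptome in mice given the MK2 inhibitor. Of 14275 genes tested with edgeR's quasi-likelihood test and batch as a term, 4567 (32.0%) passed an adjusted p of 0.05. Of these, 2249 (15.8%) were higher and 2318 (16.2%) were lower in the inflamed libraries. A change of at least 2-fold was seen for 1196 higher (8.38%) and 1009 lower genes (7.07%). The 6 inflamed and 6 non-inflamed libraries did not overlap at all for 1045 genes that were higher in every inflamed library (7.32%) and 852 that were lower in every one (5.97%). The median log2 fold change over all genes tested was 0.0. The labels list replicates as separate samples and do not say that each is another animal, so p-values measure only the spread between these samples. The number of calls depended on single libraries: 2698 genes were called without inflamed replicate 2, 2848 without inflamed replicate 6 and 2843 without non-inflamed replicate 6, and 6427 without non-inflamed replicate 5.

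Within batch 1 alone, with 2 inflamed and 4 non-inflamed libraries, 1908 genes were higher and 1729 lower. Within batches 3 and 4, with 4 inflamed and 2 non-inflamed libraries, no gene passed by edgeR (lowest adjusted p = 0.0502), though 2296 of 13800 had an unadjusted p under 0.05. The batch 1 fit and the batch 3 and 4 fit share no library. Of the 1787 genes higher in batch 1 that could be fitted in batches 3 and 4, 1733 (97.0%) were higher there too, beside 50.6% of all genes. Of the 1544 lower genes, 1490 (96.5%) were lower there too, beside 49.4% of all genes.

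**Figure D1:**
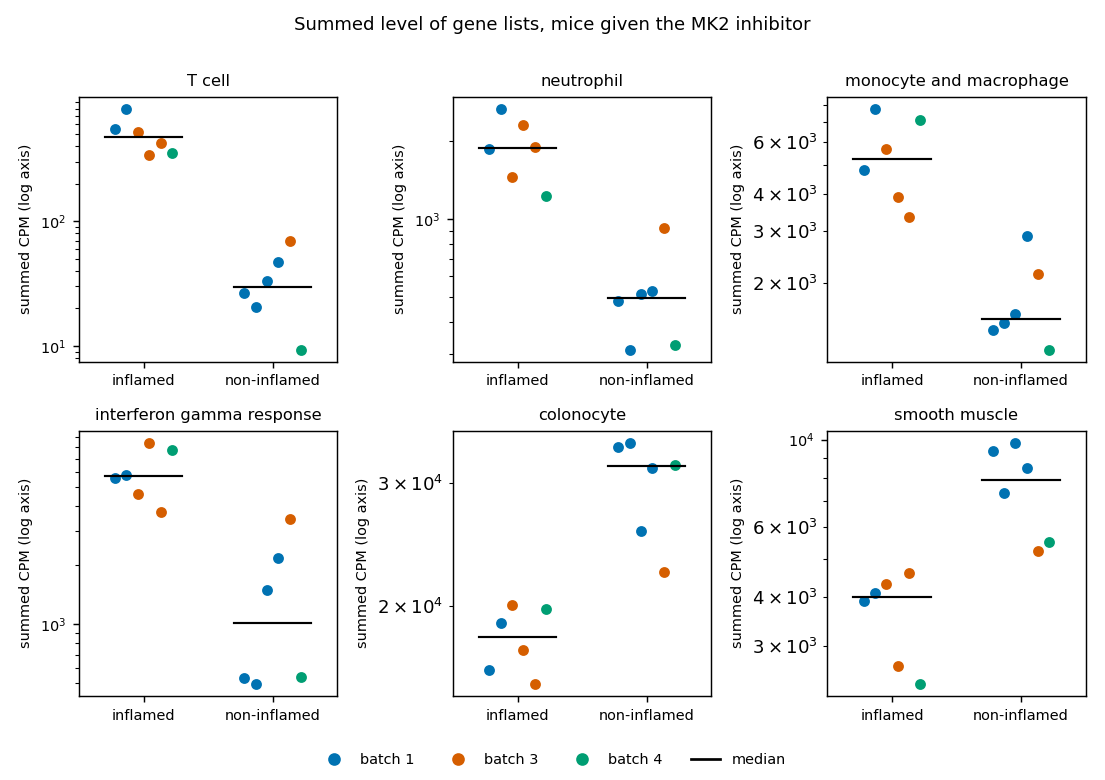
Summed CPM of the measured members of 6 gene lists in each of the 12 libraries (log axis), inflamed libraries left and non-inflamed libraries right, coloured by sequencing batch, with a bar at each group's median. T cell, neutrophil and macrophage sums lay higher in every inflamed library than in any non-inflamed one, and colonocyte and smooth muscle sums lay lower.

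T cell genes had the highest median of the 59 gene lists. Of 27 tested, 27 were higher and 0 lower in inflamed colon, beside 15.8% higher and 16.2% lower among all genes. The median log2 fold change was 4.29. For 26 of them the groups did not overlap, beside 7.32% of all genes with inflamed libraries higher. The shares over all genes are to be read beside every list count below. Cd4, the co-receptor of helper T cells, was at 27.9, 48.9 and 56.5 CPM in inflamed libraries, against 1.16, 4.1 and 7.83 CPM in non-inflamed ones (log2 fold change 3.49 ± 0.25 SE, adjusted p = 1.59e-05). Every inflamed library lay above every non-inflamed one. Cd28, which gives the costimulatory signal, rose by 4.29 ± 0.39 on the log2 scale (adjusted p = 4.7e-05) and Tcf7, a transcription factor of naive and memory T cells, by 1.85 ± 0.17 (adjusted p = 4.34e-05). Cd3e, part of the T cell receptor complex, had 7.65, 13 and 27.6 CPM in inflamed libraries and 0, 0.52 and 1.18 CPM in non-inflamed ones. The inhibitory receptor Ctla4 was at 2.68, 4.22 and 6.32 CPM in inflamed libraries, against 0, 0 and 0.268 CPM in non-inflamed ones, where it was at or near 0. Members such as Ctla4, kept by the count filter only through the inflamed group, had to come out higher. The counts and the median of this list are thus partly set by that filter. In bulk tissue, more cells of a type and more RNA per cell cannot be told apart, here or for any cell type below.

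Effector genes of T helper cells were mostly higher too. Of 11 tested, 8 were higher and 1 was lower. Ifng, the signature cytokine of Th1 cells, had 3.47, 6.34 and 10.6 CPM in inflamed libraries, against 0, 0.184 and 1.18 CPM in non-inflamed ones (log2 fold change 4.67 ± 0.74, adjusted p = 0.000956), and the groups did not overlap. Tbx21, the transcription factor that directs Th1 fate, rose by 4.14 ± 0.62 (adjusted p = 0.000664). Batf, needed by several effector lineages, rose by 4.14 ± 0.32 (adjusted p = 2.21e-05), Il2ra, the interleukin-2 receptor alpha chain, by 2.71 ± 0.25 (adjusted p = 5.07e-05) and Gata3, the Th2 and regulatory T cell factor, by 3.27 ± 0.44 (adjusted p = 0.000346). Il17a and Il22, the Th17 cytokines, were too low to be tested: Il17a reached 3.19 CPM in inflamed and 0.148 CPM in non-inflamed libraries at most, and Il22 reached 3.03 CPM in inflamed and 1.18 CPM in non-inflamed ones. Genes kept by the count filter only through the inflamed group had to differ. In every list with such members, the shares that rose or did not overlap are thus partly set by the filter. They are not evidence about members below the filter.

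Among 12 cytotoxic lymphocyte genes tested, 8 were higher and 0 lower (5 higher without inflamed replicate 2). Fasl, the death ligand of activated T and natural killer cells, rose by 4.78 ± 0.68 (adjusted p = 0.000493), Gzmk, a granzyme, by 5.55 ± 0.86 (adjusted p = 0.000852) and Eomes, a factor of cytotoxic and memory cells, by 4.4 ± 0.72 (adjusted p = 0.00121). The neighbouring granzyme genes Gzmd, Gzmf and Gzmg were among the 10 genes with the highest fold changes in the whole comparison. Gzmd had 0.922, 1.69 and 11 CPM and Gzmg 1.19, 1.69 and 9.82 CPM in inflamed libraries, and both had no count in any non-inflamed library. Set against a floor of 3 counts over the 6 non-inflamed libraries, Gzmd was at least 105-fold and Gzmg at least 110-fold higher. Gzmf reached 0.148 CPM in 1 of the non-inflamed libraries and rose by 7.21 ± 0.79 (adjusted p = 0.000107). These granzymes are close copies of each other, so their separate values are uncertain.

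Cytokine and early inflammatory genes whose transcripts carry AU-rich stretches, the class that MK2 acts on, were high in inflamed colon of mice given the inhibitor. Of 18 tested, 15 were higher and 0 lower, with a median log2 fold change of 3.09. Tnf had 9.61, 15.3 and 28.4 CPM in inflamed libraries, against 0.214, 1.46 and 6.35 CPM in non-inflamed ones (log2 fold change 3.31 ± 0.74, adjusted p = 0.00792). Il1b had 18.1, 32.7 and 39.1 CPM in inflamed libraries and 0.268, 0.611 and 11.7 CPM in non-inflamed ones (4.23 ± 0.79, adjusted p = 0.00296). Neither gene's groups overlapped, and in both the highest non-inflamed value belonged to replicate 5. Il1a, the other interleukin-1 agonist, rose by 5.33 ± 0.74 (adjusted p = 0.000422) and Plaur, the urokinase receptor, by 2.5 ± 0.46 (adjusted p = 0.00245). Cxcl1, a neutrophil attractant, had 3.67, 5.97 and 13.3 CPM in inflamed libraries, against 0.0564, 0.429 and 2.95 CPM in non-inflamed ones (3.12 ± 0.73, adjusted p = 0.00917). Ptgs2, the inducible cyclooxygenase, had 5.63, 7.63 and 17.9 CPM in inflamed libraries and 0.868, 3.53 and 5.17 CPM in non-inflamed ones (1.72 ± 0.4, adjusted p = 0.00855). Both kept non-overlapping groups. Il6 was below the filter, with at most 0.408 CPM in inflamed libraries and no count in non-inflamed ones.

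Genes of the pathway itself were called about as often as all genes. Of 24 genes for p38 kinases, MK2 and its relatives and AU-rich decay factors, 6 were higher, 2 lower and 16 did not pass, beside 32.0% called among all genes, with a median of 0.04; the higher count was 2, 3 and 3 without inflamed replicates 2, 1 and 6. The lower count was 1 without inflamed replicate 1 or 6 or non-inflamed replicate 2 or 6, and 4 without non-inflamed replicate 5. Mapkapk2 had 133, 152 and 168 CPM in inflamed libraries, against 96, 102 and 149 CPM in non-inflamed ones, where replicate 5 was the highest (log2 fold change 0.34 ± 0.1, adjusted p = 0.0237). That call was lost, with an adjusted p of up to 0.0942, when non-inflamed replicate 2 or 6 or inflamed replicate 1, 2 or 6 was left out, and without the 3 libraries with pancreatic transcripts (adjusted p = 0.0883). Zfp36 did not pass, with 12.4, 18 and 30.4 CPM in inflamed libraries and 9.49, 14.6 and 23.6 CPM in non-inflamed ones (0.54 ± 0.24, adjusted p = 0.108). It did pass without non-inflamed replicate 5 (0.82) and with a term for Y-linked transcripts in the edgeR fit (0.82, adjusted p = 0.037). Lsp1, a leukocyte actin-binding substrate of MK2, rose by 1.37 ± 0.19 (adjusted p = 0.000415) and Mapk11, the p38 beta isoform, by 1.81 ± 0.38 (adjusted p = 0.00463). Map2k6, a kinase that activates p38, was lower (-1.14 ± 0.21, adjusted p = 0.00198), and its groups did not overlap. Mapk14, the main p38 isoform, did not pass (-0.23 ± 0.11, adjusted p = 0.133), except without non-inflamed replicate 5 (-0.34).

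Immediate early genes were called about as often as all genes. Of 21 tested 5 were higher and 2 lower, beside 32.0% called among all genes, and the higher count was 2 to 3 without any of non-inflamed replicates 1, 2 and 6 or inflamed replicates 1, 2, 4 and 6, and the lower count 1 without inflamed replicate 1, 2 or 6 or non-inflamed replicate 6. Egr2, which restrains T cell activation, rose by 3.23 ± 0.5 (adjusted p = 0.000787) and Ier5 by 0.91 ± 0.16 (adjusted p = 0.00208), whereas Klf4, a factor of mature epithelium, fell by 0.64 (SE 0.15, adjusted p = 0.00862). Fos had 70.1, 105 and 129 CPM in inflamed libraries and 72.1, 91.8 and 185 CPM in non-inflamed ones and did not pass (0.06 ± 0.24, adjusted p = 0.862). Among 10 dual specificity phosphatases, which switch MAP kinases off, 5 were higher, but only 2 without inflamed replicate 1 or 2 and 3 without inflamed replicate 6 or non-inflamed replicate 1, 4 or 6. Dusp2, the member found in activated lymphocytes, had 3.76, 5.52 and 19.6 CPM in inflamed libraries and 0.232, 0.713 and 1.77 CPM in non-inflamed ones (3.57 ± 0.48, adjusted p = 0.000346). Of 18 NF-κB subunits and feedback inhibitors 11 were higher and 0 lower. Nfkb2, the p100 subunit, had 63.9, 75.2 and 83.7 CPM in inflamed libraries, against 30.1, 35.8 and 40.3 CPM in non-inflamed ones (1.08 ± 0.11, adjusted p = 6.98e-05), so a small fold change came with groups well apart. Traf1, an adaptor of TNF receptors, rose by 1.68 ± 0.27 (adjusted p = 0.000941) and Icam1, the leukocyte adhesion molecule, by 2.65 ± 0.43 (adjusted p = 0.00125). Of 21 SOCS and JAK-STAT genes 9 were higher and 0 lower (5 without inflamed replicate 1): Stat4, the interleukin-12 signal transducer, rose by 3.7 ± 0.32 (adjusted p = 3.59e-05), Il10ra, an interleukin-10 receptor chain, by 2.88 ± 0.32 (adjusted p = 0.000106) and Jak3, the kinase of common gamma chain receptors, by 1.18 ± 0.17 (adjusted p = 0.000566).

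**Figure D2:**
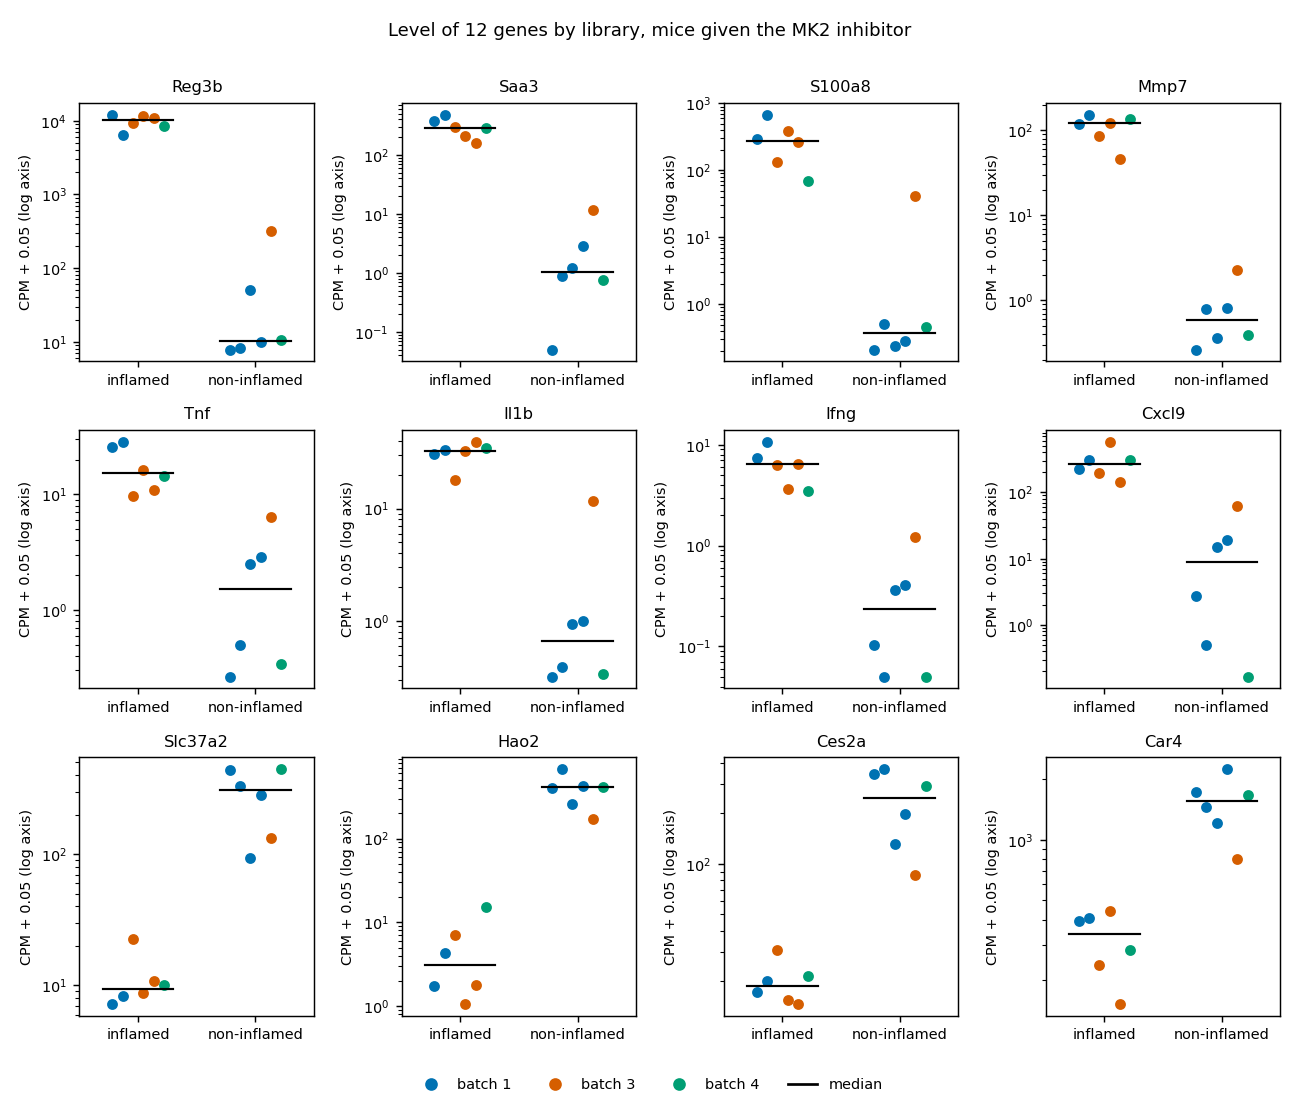
CPM of 12 genes in each library (log axis, 0.05 CPM added so that 0 can be drawn), inflamed libraries left and non-inflamed libraries right, coloured by batch, with a bar at each group's median. The single high non-inflamed point in Reg3b, Saa3, S100a8 and Il1b is replicate 5, at 318, 11.8, 41.6 and 11.7 CPM.

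Cytokines and receptors of the TNF and interleukin-1 families were raised broadly. Of 19 TNF family genes 14 were higher and 0 lower. Tnfsf8, the CD30 ligand, had 3.03, 5.6 and 6.08 CPM in inflamed libraries, against 0.174, 0.275 and 0.591 CPM in non-inflamed ones (4.08 ± 0.33, adjusted p = 2.53e-05). Tnfsf11, the ligand of RANK, rose by 4.14 ± 0.36 (adjusted p = 4.04e-05) and Ltb, lymphotoxin beta, by 4.45 ± 0.42 (adjusted p = 5.33e-05), each with groups that did not overlap. The TNF receptor gene Tnfrsf1b rose by 2.24 ± 0.34 (adjusted p = 0.00076). Of 15 interleukin-1 family genes 8 were higher and 2 lower. Il18r1 and Il18rap, which together form the interleukin-18 receptor on T and natural killer cells, rose by 3.85 ± 0.28 (adjusted p = 1.67e-05) and 3.62 ± 0.37 (adjusted p = 6.98e-05). Il18, their ligand, made largely by gut epithelium, was lower, with 5.49, 16.5 and 32.2 CPM in inflamed libraries and 35.6, 54.6 and 76 CPM in non-inflamed ones (-1.45 ± 0.29, adjusted p = 0.00362). Ligand and receptor thus lay in opposite directions, with no overlap between groups in either. Il1rap, the shared accessory chain of interleukin-1 receptors, was the other lower member.

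Chemokines and their receptors moved together. Of 30 chemokine ligands 19 were higher and 1 was lower, and of 15 receptors 12 were higher and 0 lower. Cxcl16 had 73.1, 105 and 161 CPM in inflamed libraries, against 14.1, 17.9 and 28.4 CPM in non-inflamed ones (2.56 ± 0.26, adjusted p = 7.02e-05), and Cxcr6, its receptor on effector T cells, had 21.4, 34.3 and 56 CPM in inflamed libraries, against 0.289, 1.73 and 4.87 CPM in non-inflamed ones (4.17 ± 0.49, adjusted p = 0.000174). Both members of the pair were higher in every inflamed library. Cxcl13, which gathers lymphocytes into follicles, rose by 3.5 ± 0.38 (adjusted p = 0.000107) and Ccl9 by 2.58 ± 0.34 (adjusted p = 0.000302). Of the receptors, Cxcr4 rose by 3.52 ± 0.28 (adjusted p = 2.21e-05) and Ccr8 by 5.26 ± 0.58 (adjusted p = 0.000112). The lower ligand was Ccl28, a chemokine of mucosal epithelium that attracts antibody-secreting cells, with 71.8, 95.7 and 103 CPM in inflamed libraries and 174, 203 and 279 CPM in non-inflamed ones (-1.23 ± 0.16, adjusted p = 0.000329). Its groups did not overlap.

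Myeloid genes were higher as well. Of 24 neutrophil genes 22 were higher and 0 lower, with a median log2 fold change of 4.05. S100a8 and S100a9 encode calprotectin, the neutrophil protein measured in stool in inflammatory bowel disease. S100a8 had 69.7, 279 and 675 CPM in inflamed libraries, against 0.161, 0.321 and 41.6 CPM in non-inflamed ones (6.87 ± 1.38, adjusted p = 0.00442). S100a9 had 54.2, 134 and 325 CPM in inflamed libraries and 0.0631, 0.341 and 32.6 CPM in non-inflamed ones (6.13 ± 1.2, adjusted p = 0.00397). Every inflamed library lay above every non-inflamed one for both, and the high non-inflamed values were again those of replicate 5. Clec4d, a C-type lectin receptor of neutrophils and monocytes, had 11.3, 13 and 16.6 CPM in inflamed libraries and 0, 0.0282 and 0.177 CPM in non-inflamed ones (7.48 ± 0.5, adjusted p = 1.48e-05), the smallest adjusted p of any named gene together with Cdkn2a. Fpr2, a formyl peptide receptor, rose by 6.12 ± 0.58 (adjusted p = 5.33e-05) and the integrin Itgam by 2.52 ± 0.19 (adjusted p = 1.89e-05). Ly6g did not pass (0.11 ± 0.3, adjusted p = 0.792), though its product is used to sort neutrophils: it had 118, 156 and 334 CPM in inflamed libraries and 130, 160 and 368 CPM in non-inflamed ones.

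Of 25 monocyte and macrophage genes 19 were higher and 2 were lower. Csf1r, the receptor for macrophage colony-stimulating factor, had 96.1, 140 and 244 CPM in inflamed libraries, against 16.9, 19.9 and 63.9 CPM in non-inflamed ones (2.17 ± 0.16, adjusted p = 1.67e-05). C1qc rose by 2.4 ± 0.23 (adjusted p = 5.33e-05) and the lysosomal protein gene Cd68 by 2.59 ± 0.25 (adjusted p = 5.38e-05). Ly6c2, a gene of blood monocytes, rose by 4.4 ± 0.58 (adjusted p = 0.000323). The lower members were Cd163 and Folr2, receptors of tissue-resident macrophages. Cd163 had 0.253, 1.63 and 8.17 CPM in inflamed libraries and 1.3, 4.55 and 12.1 CPM in non-inflamed ones (-2.62 ± 0.61, adjusted p = 0.00815), and Folr2 fell by 1.44 (SE 0.34, adjusted p = 0.00886). Both had overlapping groups. Of 13 dendritic cell genes 11 were higher and 0 lower: the integrin gene Itgae rose by 2.41 ± 0.34 (adjusted p = 0.000447), the chemokine Ccl17 by 2.92 ± 0.43 (adjusted p = 0.000606) and Flt3, a growth factor receptor of dendritic cells, by 2.07 ± 0.4 (adjusted p = 0.00293). Itgae is also carried by intraepithelial T cells. Of 6 eosinophil and mast cell genes tested, Mcpt1 and Mcpt2, proteases of mucosal mast cells, were higher by 4.44 ± 0.92 (adjusted p = 0.00532) and 5.27 ± 0.87 (adjusted p = 0.00136), and 4 did not pass.

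Genes that respond to interferon gamma were higher in inflamed colon. Of 27 tested 17 were higher and 0 lower, with a median of 2.04, but the count was 11 without inflamed replicate 2 or 6 and 8 with a term for Y-linked transcripts. Cxcr3, the receptor of interferon-induced chemokines, rose by 4.17 ± 0.51 (adjusted p = 0.000186). Its ligand Cxcl11 rose by 4.08 ± 0.77 (adjusted p = 0.0027), and its ligand Cxcl9 had 144, 269 and 575 CPM in inflamed libraries, against 0.116, 8.9 and 62.9 CPM in non-inflamed ones (4.39 ± 1.07, adjusted p = 0.012; 0.0562 with the Y-linked term). Ido1, which degrades tryptophan, had 231, 491 and 1070 CPM in inflamed libraries and 2.14, 12.8 and 94.2 CPM in non-inflamed ones (4.08 ± 0.95, adjusted p = 0.00969). Gbp9, a guanylate-binding protein gene, rose by 1.7 ± 0.32 (adjusted p = 0.00257).

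Antigen presentation genes of both classes had medians above 0, at 1.48 for class I and processing and 1.78 for class II. Of 20 class I and processing genes 16 were higher and 0 lower, a count of 9 to 10 without any of non-inflamed replicates 1, 2, 3 and 6 or inflamed replicates 1, 2 and 6, and of 9 without the 3 libraries with pancreatic transcripts or with the Y-linked term. H2-K1, a classical class I heavy chain, had 1610, 2060 and 2530 CPM in inflamed libraries, against 530, 784 and 1330 CPM in non-inflamed ones (1.41 ± 0.24, adjusted p = 0.00143). H2-Q4, a non-classical relative, rose by 2.1 ± 0.31 (adjusted p = 0.000635) and Tap2, a peptide transporter subunit, by 1.56 ± 0.24 (adjusted p = 0.000864). Of 12 class II genes 5 were higher and 7 did not pass, whereas limma-voom with quality weights called 11 of them higher. Those that passed were Ctss, a protease that trims the invariant chain (0.63 ± 0.16, adjusted p = 0.0113; 0.054 without inflamed replicate 2), and the less abundant H2-Eb2 (3.2 ± 0.5, adjusted p = 0.000864), H2-Oa (2.69 ± 0.52, adjusted p = 0.00317), H2-DMb2 and H2-Ob, the last not called without inflamed replicate 1 or 6 or non-inflamed replicate 6 (adjusted p up to 0.0846). Among those that did not pass with edgeR, Cd74, the invariant chain, had 2630, 3310 and 3960 CPM in inflamed libraries and 88.2, 964 and 2090 CPM in non-inflamed ones (1.75 ± 0.81, adjusted p = 0.117), and H2-Aa was at 1020, 1480 and 2030 CPM in inflamed libraries, against 44.8, 459 and 1320 CPM in non-inflamed ones (1.71 ± 0.86, adjusted p = 0.146). Non-inflamed replicates 3, 4 and 5 stood at 1630 to 2090 CPM of Cd74 and replicates 1, 2 and 6 at 88.2 to 300 CPM, so the spread lay within the non-inflamed group. Of 24 type I interferon stimulated genes 6 were higher and 18 did not pass, with 3 higher without any of non-inflamed replicates 2 and 6 or inflamed replicates 1, 4 and 6. Ifit2 rose by 2.48 ± 0.48 (adjusted p = 0.00342), Usp18 by 2 ± 0.46 (adjusted p = 0.00797; 0.0503 with the Y-linked term) and Oasl1 by 0.94 ± 0.18 (adjusted p = 0.0031), whereas Isg15 did not pass (1 ± 0.45, adjusted p = 0.105) except without non-inflamed replicate 1.

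Most genes of the epithelial antimicrobial and interleukin-22 response list were higher in inflamed colon. S100a8, S100a9 and Lcn2 are also on the neutrophil list, so the counts are not of epithelium alone. Of 23 tested 15 were higher and 3 lower, with a median of 1.59. The count was 9 higher without inflamed replicate 2, and 1 lower without inflamed replicate 1 or 6 or non-inflamed replicate 6. Reg3b and Reg3g encode secreted lectins that bind gram-negative and gram-positive bacteria and are induced by interleukin-22. They lie close together on chromosome 6 of GRCm38, Reg3b at 78370657 to 78373466 on the plus strand and Reg3g at 78466269 to 78468872 on the minus strand. Reg3b had 6420, 10100 and 12000 CPM in inflamed libraries, against 7.77, 10.2 and 318 CPM in non-inflamed ones (7.74 ± 0.99, adjusted p = 0.000348). Reg3g had 3670, 5170 and 6880 CPM in inflamed libraries and 3.42, 5.59 and 157 CPM in non-inflamed ones (7.91 ± 0.99, adjusted p = 0.000298). Even non-inflamed replicate 5, the highest of its group for both, stayed far below the lowest inflamed library. Saa3, a serum amyloid made by epithelium and macrophages, had 158, 289 and 477 CPM in inflamed libraries and 0, 0.991 and 11.8 CPM in non-inflamed ones (7.04 ± 0.92, adjusted p = 0.000399). Lcn2, which starves bacteria of iron, had 36.8, 87.2 and 177 CPM in inflamed libraries and 1.95, 2.89 and 33.1 CPM in non-inflamed ones (3.56 ± 0.41, adjusted p = 0.000158). Both had groups that did not overlap. Duox2, the epithelial peroxide-generating oxidase, rose by 1.4 ± 0.29 (adjusted p = 0.00421).

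Reg3a had the highest fitted fold change of all, but it moved with pancreatic transcripts. Its levels were 1.17, 36.8 and 254 CPM in inflamed libraries, the 3 highest being replicates 3, 5 and 6, the libraries with pancreatic transcripts; no count was found in any non-inflamed library, which makes it at least 1710-fold higher over the pooled counts. The call (adjusted p = 0.0315) was lost, at up to 0.0869, without non-inflamed replicate 1, 5 or 6 or inflamed replicate 1, 2, 5 or 6. Rnase1, a secreted ribonuclease of pancreas and endothelium, moved the same way, with 6.64, 36.8 and 229 CPM in inflamed libraries and 0.232, 0.426 and 0.846 CPM in non-inflamed ones (5.78 ± 1.04, adjusted p = 0.00247). Without those 3 libraries, the adjusted p was 0.00142 for Rnase1 (log2 fold change 4.13) and 0.0113 for Reg3a.

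Promoter sequences of 4 induced genes are shown because they belong to the groups that rose together: the antimicrobial pair, a neutrophil chemokine and an interferon-induced chemokine. Each is the 300-base RefSeq window around the gene's transcription start, mostly upstream of it, 5′ to 3′ on the gene's own strand, GRCm38.p6. By the Reg3b gene start given earlier, most of the Reg3b window lies inside the gene, so these annotations differ. Capitals mark matches, on either strand, to TTCNNNGAA (bound by STAT factors), GGG and TTTCC with any 2 bases between them (bound by NF-κB) or GAAA and GAAA with any 2 bases between them (the interferon-stimulated response element). No marked match overlapped another.
Reg3b, chr6:78370635-78370934, plus strand: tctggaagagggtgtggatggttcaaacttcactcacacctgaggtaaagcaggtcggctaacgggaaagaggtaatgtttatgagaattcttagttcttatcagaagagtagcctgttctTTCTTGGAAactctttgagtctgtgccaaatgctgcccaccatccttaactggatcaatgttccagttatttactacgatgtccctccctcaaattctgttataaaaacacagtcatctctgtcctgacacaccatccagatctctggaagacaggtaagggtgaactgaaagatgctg
Reg3g, chr6:78468825-78469124, minus strand: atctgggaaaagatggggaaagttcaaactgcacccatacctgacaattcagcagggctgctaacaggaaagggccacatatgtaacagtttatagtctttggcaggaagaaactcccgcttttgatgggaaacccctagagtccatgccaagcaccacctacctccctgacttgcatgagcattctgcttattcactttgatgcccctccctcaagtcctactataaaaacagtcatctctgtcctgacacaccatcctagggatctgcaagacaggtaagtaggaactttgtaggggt
Cxcl1, chr5:90890995-90891294, plus strand: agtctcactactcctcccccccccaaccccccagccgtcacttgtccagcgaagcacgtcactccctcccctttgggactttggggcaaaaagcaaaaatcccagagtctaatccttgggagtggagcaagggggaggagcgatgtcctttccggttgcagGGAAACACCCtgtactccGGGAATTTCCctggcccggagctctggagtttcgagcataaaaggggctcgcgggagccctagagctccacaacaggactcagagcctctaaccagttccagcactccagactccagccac
Cxcl10, chr5:92348840-92349139, minus strand: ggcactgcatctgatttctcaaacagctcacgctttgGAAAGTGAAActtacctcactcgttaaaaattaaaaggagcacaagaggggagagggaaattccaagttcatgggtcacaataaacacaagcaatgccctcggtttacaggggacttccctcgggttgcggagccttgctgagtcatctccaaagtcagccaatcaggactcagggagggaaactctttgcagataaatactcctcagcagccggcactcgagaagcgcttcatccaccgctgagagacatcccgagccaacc

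The Reg3b promoter held 1 match to the STAT motif and the Reg3g promoter none of the 3 motifs, although both genes rose alike. The Cxcl1 promoter held 2 matches to the NF-κB motif and the Cxcl10 promoter 1 to the interferon-stimulated response element. Cxcl10 had 34.5, 46.9 and 108 CPM in inflamed libraries and 0.579, 3.91 and 37.5 CPM in non-inflamed ones (3.29 ± 0.87, adjusted p = 0.017; 0.0559 with the Y-linked term; log2 fold change 4.97 without non-inflamed replicate 5). Of the 1196 genes higher by at least 2-fold, 877 had a promoter in the table: 11.9% of these held the STAT motif, 4.68% the NF-κB motif and 8.78% the response element. Of the 1009 lower by at least 2-fold, 757 had a promoter, and these held the motifs at 6.34%, 2.25% and 3.04%. Of all genes tested, 10793 had a promoter, and these held them at 8.28%, 2.08% and 3.97%. A gene was counted if any of its promoters held the motif. The 32851 promoters of the table, counted singly, held them at 8.3%, 1.63% and 3.44%. These are counts of letters, and say nothing of binding.

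Enzymes that remodel tissue and proteins that amplify inflammation were higher as well. Of 26 matrix and stromal inflammation genes 17 were higher and 0 lower. Mmp7, matrilysin, a protease of injured epithelium and Paneth cells, had 46.5, 121 and 152 CPM in inflamed libraries, against 0.214, 0.54 and 2.21 CPM in non-inflamed ones (7.47 ± 0.52, adjusted p = 1.67e-05). Mmp12, the macrophage elastase, rose by 3.3 ± 0.36 (adjusted p = 9.83e-05), Mmp10, stromelysin-2, by 4.6 ± 0.5 (adjusted p = 0.000107) and Thy1, a surface protein of fibroblasts and T cells, by 2.28 ± 0.22 (adjusted p = 5.38e-05). None of these had overlapping groups. Collagens and basement membrane genes mostly did not pass: of 20, 3 were higher and 1 lower. The lower one was Col14a1, not called without inflamed replicate 1 or 2, and 4 were lower without non-inflamed replicate 5. Lama1 rose by 2.2 ± 0.33 (adjusted p = 0.000664), Col18a1 by 1.1 ± 0.17 (adjusted p = 0.000729) and Col1a2 by 0.52 ± 0.14 (adjusted p = 0.0159; 0.0958 without the 3 libraries with pancreatic transcripts and 0.143 within batch 1). Col1a1 did not pass (0.25 ± 0.15, adjusted p = 0.215).

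Of 18 complement genes 16 were higher and 0 lower. C3, the central component, had 663, 1000 and 1830 CPM in inflamed libraries, against 29.9, 67.3 and 405 CPM in non-inflamed ones (2.83 ± 0.37, adjusted p = 0.000336), with no overlap. C5ar1, the receptor for the C5a fragment, rose by 2.49 ± 0.22 (adjusted p = 4.15e-05) and C1s1, a protease of the classical pathway, by 1.87 ± 0.19 (adjusted p = 6.98e-05). Of 16 genes of reactive oxygen and nitrogen 11 were higher and 1 lower: Cat, catalase, which was not called without inflamed replicate 2 (adjusted p = 0.0578). Cybb, the phagocyte oxidase subunit, had 127, 161 and 388 CPM in inflamed libraries and 3.94, 7.83 and 49.3 CPM in non-inflamed ones (3.68 ± 0.36, adjusted p = 5.99e-05); Ncf1, its cytosolic partner, rose by 2.97 ± 0.3 (adjusted p = 5.99e-05) and Hmox1, heme oxygenase-1, by 2.73 ± 0.3 (adjusted p = 0.000112). Of 19 prostaglandin and leukotriene genes 7 were higher and 3 lower. Tbxas1, thromboxane synthase, rose by 1.98 ± 0.31 (adjusted p = 0.000795) and Alox5ap, needed for leukotriene synthesis, by 2.08 ± 0.38 (adjusted p = 0.00232), while Ptger1, a prostaglandin E2 receptor, fell by 1.46 (SE 0.26, adjusted p = 0.00186). Of 18 endothelial and adhesion genes 7 were higher and 1 lower, Lyve1, which was called in only 4 of the 12 fits that left out a library (all but those without non-inflamed replicates 1, 2, 3 and 6 and inflamed replicates 1, 2, 4 and 6). Vcam1 rose by 2.37 ± 0.19 (adjusted p = 2.93e-05), and the leukocyte integrin chains Itgb2 and Itgal by 3.45 ± 0.32 (adjusted p = 5.07e-05) and 3.9 ± 0.4 (adjusted p = 7.33e-05).

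**Figure D3:**
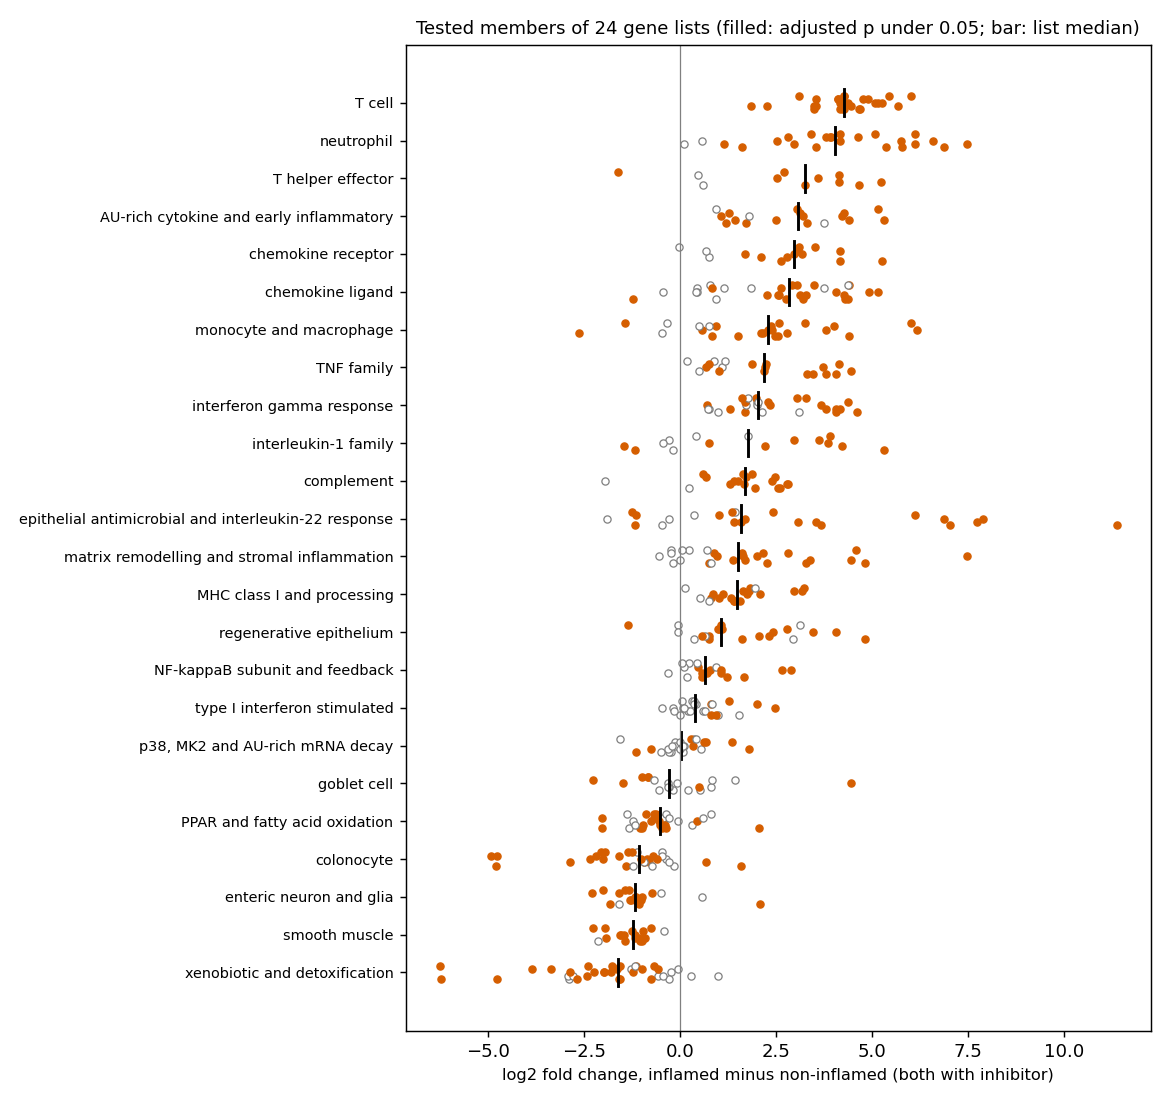
Log2 fold change, inflamed minus non-inflamed, of every tested member of 24 gene lists, ordered by list median (bar). Filled points passed an adjusted p of 0.05 and open points did not. T cell, neutrophil and cytokine lists lie to the right of 0 and xenobiotic, smooth muscle, neuronal and colonocyte lists to the left.

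Mature absorptive epithelium was lower in inflamed colon. Of 30 colonocyte genes 19 were lower and 2 higher, with a median log2 fold change of -1.07. Slc37a2, a sugar-phosphate exchanger of surface colonocytes, had 7.18, 9.33 and 22.6 CPM in inflamed libraries, against 93.9, 307 and 444 CPM in non-inflamed ones (-4.79 ± 0.55, adjusted p = 0.000174). Car4, a carbonic anhydrase of the brush border, had 152, 339 and 442 CPM in inflamed libraries and 805, 1570 and 2250 CPM in non-inflamed ones (-2.01 ± 0.29, adjusted p = 0.00054). Abcg2, an efflux pump, fell by 1.01 (SE 0.15, adjusted p = 0.000635), and Slc26a3, the chloride-bicarbonate exchanger lost in congenital chloride diarrhoea, by 2.19 (SE 0.38, adjusted p = 0.00164). All 4 had groups that did not overlap. The higher members were Guca2b, uroguanylin (1.6 ± 0.27, adjusted p = 0.00152), and Krt20, a keratin of surface cells (0.67 ± 0.17, adjusted p = 0.0126; not called without non-inflamed replicate 6, nor without the libraries with pancreatic transcripts, adjusted p = 0.0632). Markers of distal colon position moved with these genes: 6 of 12 were lower and 0 higher, with a median of -0.62, and Hoxb13 was among them (-1.09 ± 0.22, adjusted p = 0.00381; 0.064 within batch 1). Car4 and Sycn are on both lists, and Sycn also among the pancreatic markers, and the part of position along the colon in the colonocyte result was not tested.

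Genes of drug and lipid metabolism were lower too. Of 36 xenobiotic and detoxification genes 24 were lower and 0 higher (2 higher without non-inflamed replicate 5), beside 16.2% lower among all genes. The median was -1.61. For 19 the groups did not overlap, beside 5.97% of all genes with inflamed libraries lower. Hao2, a peroxisomal hydroxyacid oxidase, had 1.01, 3 and 15.2 CPM in inflamed libraries, against 172, 409 and 674 CPM in non-inflamed ones (-6.25 ± 0.62, adjusted p = 8.04e-05). Klb, the co-receptor for the fibroblast growth factors that control bile acid and energy balance, had 0, 0.0706 and 0.264 CPM in inflamed libraries and 2.66, 8.44 and 12.4 CPM in non-inflamed ones (-6.23 ± 0.7, adjusted p = 0.000122). Gstm3, a glutathione transferase, fell by 1.59 (SE 0.17, adjusted p = 8.6e-05), Ces2a, a carboxylesterase, fell by 3.36 (SE 0.42, adjusted p = 0.000249), Sult1a1, a sulfotransferase, fell by 3.85 (SE 0.49, adjusted p = 0.000269) and the cytochrome gene Cyp2c55 fell by 4.76 (SE 0.74, adjusted p = 0.0011). Of 31 genes of PPAR signalling and fatty acid oxidation 18 were lower and 2 higher, but 9 and 10 lower without inflamed replicates 1 and 2. Ppargc1a, the coactivator that drives mitochondrial biogenesis, had 8.47, 15.8 and 19.1 CPM in inflamed libraries, against 33.4, 54.5 and 64.5 CPM in non-inflamed ones (-2.04 ± 0.25, adjusted p = 0.00021). Ehhadh, a peroxisomal enzyme, fell by 1.03 (SE 0.13, adjusted p = 0.000275). Slc27a2, a fatty acid transporter, ran against the list with a rise of 2.07 ± 0.22 (adjusted p = 9.52e-05) and so did Acadl, not called without inflamed replicate 2 or 6 or non-inflamed replicate 6. Of 29 nuclear respiratory and citric acid cycle genes 6 were lower, beside 16.2% of all genes, with a median of -0.05; among them were Cs, citrate synthase (-0.57 ± 0.09, adjusted p = 0.00127), Idh3a (-0.69 ± 0.12, adjusted p = 0.00189) and Sdha (-0.51 ± 0.1, adjusted p = 0.00406). Of 10 transcripts encoded in mitochondrial DNA 8 were lower (3 without inflamed replicate 1 and 4 without non-inflamed replicate 5); mt-Co1 had 5080, 5290 and 5730 CPM in inflamed libraries and 7590, 9880 and 17700 CPM in non-inflamed ones (-0.92 ± 0.22, adjusted p = 0.0106; 0.0525 without the libraries with pancreatic transcripts).

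Secretory lineages changed less evenly. Of 19 goblet cell genes 5 were lower and 2 higher, beside 32.0% called among all genes. The lower count was 3 without inflamed replicate 2 or 6 or non-inflamed replicate 6. The higher count was 1 without inflamed replicate 1 or 2 and 4 without non-inflamed replicate 3. Clca1, a secreted mucus-processing protein, had 397, 768 and 1290 CPM in inflamed libraries, against 2580, 3990 and 9500 CPM in non-inflamed ones (-2.25 ± 0.3, adjusted p = 0.000352). Fcgbp, a mucus-binding protein, fell by 1.49 (SE 0.25, adjusted p = 0.00139) and Zg16, a lectin of the mucus layer, by 0.99 (SE 0.23, adjusted p = 0.00865). Muc2, the gel-forming mucin itself, did not pass, with 349, 675 and 1730 CPM in inflamed libraries and 475, 810 and 3960 CPM in non-inflamed ones (-0.19 ± 0.48, adjusted p = 0.779). Of 15 enteroendocrine genes 8 were lower and 1 higher, with 5 lower without inflamed replicate 6 or non-inflamed replicate 6. The higher one, Nts, neurotensin, was not called without any of inflamed replicates 1, 3, 4 and 6 or non-inflamed replicates 1, 2, 4, 5 and 6. The carboxypeptidase Cpe fell by 1.39 (SE 0.18, adjusted p = 0.000302), Scg2, secretogranin II, by 1.16 (SE 0.21, adjusted p = 0.0023) and the colonic peptide hormone Insl5 by 1.86 (SE 0.34, adjusted p = 0.00243). Of 12 tuft cell genes 3 were lower and 2 higher. Trpm5, the ion channel of tuft cells, fell by 2.17 (SE 0.37, adjusted p = 0.00144). Alox5ap, which was among the higher members, is also expressed by leukocytes.

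Most genes of the regenerative epithelium list were higher, while most genes of cell division did not pass. Of 22 regenerative epithelium genes 15 were higher and 1, Sprr2a1, lower (adjusted p = 0.00353; 0.0519 without the libraries with pancreatic transcripts), with 8 or 9 higher without inflamed replicate 1 or 2 or non-inflamed replicate 2. Clu, clusterin, had 95.5, 135 and 197 CPM in inflamed libraries, against 19.9, 26.4 and 39.9 CPM in non-inflamed ones (2.33 ± 0.22, adjusted p = 5.27e-05). Areg, the EGF receptor ligand amphiregulin, had 31.6, 57.9 and 88.6 CPM in inflamed libraries and 8.56, 10 and 26.6 CPM in non-inflamed ones (2.43 ± 0.27, adjusted p = 0.000112), and Spp1, osteopontin, rose by 4.83 ± 0.59 (adjusted p = 0.000199). None of these groups overlapped. Spp1 is also on the matrix list and Clu on a lymphoid tissue list, so the counts need not be of epithelium alone. Of 17 stem cell and Wnt genes 1 was higher and 2 were lower: Cd44 rose by 1.48 ± 0.25 (adjusted p = 0.00152), while the Wnt feedback inhibitors Nkd1 and Znrf3 fell by 1.58 (SE 0.35, adjusted p = 0.00645) and 1.06 (SE 0.25, adjusted p = 0.00949; 0.0563 for Znrf3 without the libraries with pancreatic transcripts). Lgr5, the stem cell receptor, did not pass (-0.76 ± 0.32, adjusted p = 0.0916). Of 30 cell cycle genes 1 was higher, Ccne1, cyclin E1 (1.15 ± 0.28, adjusted p = 0.00965), and 8 were higher without non-inflamed replicate 5, 4 without inflamed replicate 3, 3 without non-inflamed replicate 3 and 2 without non-inflamed replicate 1. Mki67 had 75.6, 157 and 251 CPM in inflamed libraries and 72.2, 142 and 173 CPM in non-inflamed ones (-0.01 ± 0.25, adjusted p = 0.977). Cdkn2a, the cell cycle inhibitor p16, was by contrast among the genes with the highest fold changes, with 3.32, 8.64 and 39.8 CPM in inflamed libraries and 0, 0.0571 and 0.148 CPM in non-inflamed ones (8.34 ± 0.56, adjusted p = 1.48e-05). Of 18 tight junction genes 1 was higher and 5 were lower, beside 32.0% called among all genes. The lower count was 3 without inflamed replicate 2 or 6 or non-inflamed replicate 6. The higher count was 2 without non-inflamed replicate 5. Cldn4 rose by 1.87 ± 0.22 (adjusted p = 0.000168), whereas Ocln, occludin, had 78.8, 80.8 and 89.7 CPM in inflamed libraries and 117, 165 and 188 CPM in non-inflamed ones (-0.92 ± 0.13, adjusted p = 0.000552), and Cldn12 fell by 0.56 (SE 0.11, adjusted p = 0.00264).

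Muscle and nerve transcripts were lower. Of 18 smooth muscle genes 16 were lower and 0 higher, with a median of -1.22 (10 lower without non-inflamed replicate 6). Acta2, smooth muscle actin, had 285, 453 and 545 CPM in inflamed libraries, against 644, 899 and 1150 CPM in non-inflamed ones (-1.04 ± 0.17, adjusted p = 0.00136). Ppp1r12b, a subunit of myosin phosphatase, fell by 1.45 (SE 0.25, adjusted p = 0.0017) and Kcnmb1, a potassium channel subunit, fell by 1.25 (SE 0.22, adjusted p = 0.002). Their groups did not overlap. Of 19 enteric neuron and glia genes 15 were lower and 1 higher, with a median of -1.17. Gfra1, the receptor for the neurotrophic factor GDNF, had 1.12, 1.67 and 3.95 CPM in inflamed libraries, against 5.61, 7.7 and 10.6 CPM in non-inflamed ones (-2.28 ± 0.35, adjusted p = 0.000818). Nos1, which makes the nitric oxide of relaxing motor neurons, fell by 1.99 (SE 0.35, adjusted p = 0.00173) and Uchl1, a neuronal marker, by 1.15 (SE 0.23, adjusted p = 0.00324). The higher member was Tac1, the precursor of substance P, with 40.8, 104 and 131 CPM in inflamed libraries and 10.2, 18 and 49.2 CPM in non-inflamed ones (2.1 ± 0.45, adjusted p = 0.00608).

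**Figure D4:**
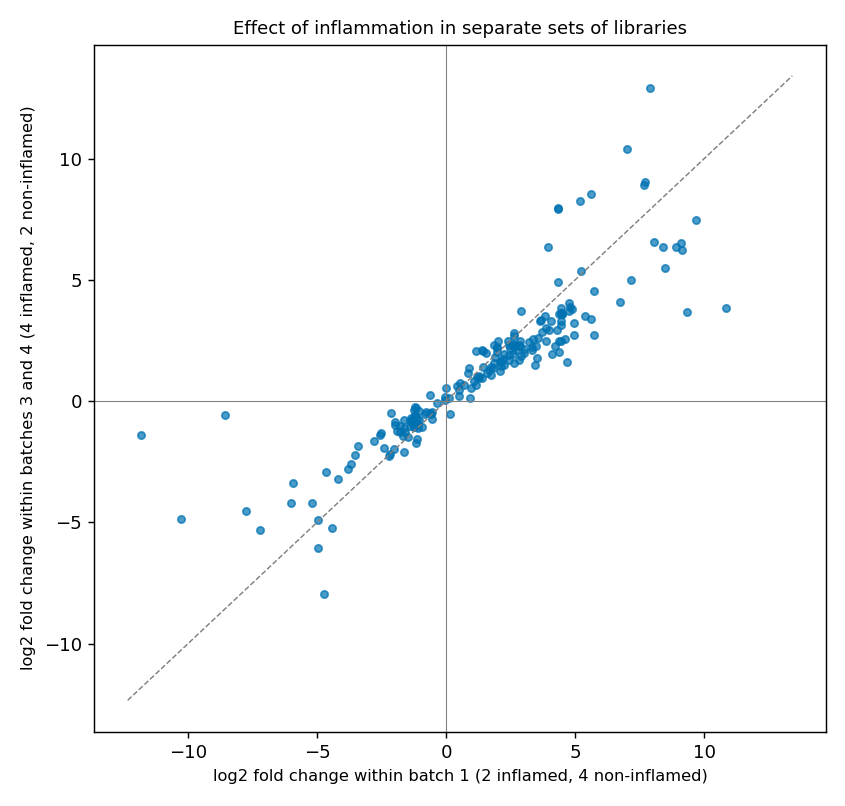
Log2 fold change, inflamed minus non-inflamed, of the genes named in the text, within batches 3 and 4 (vertical) against batch 1 (horizontal), with the line of equal values. The 2 fits share no library, but the genes called over all 12 libraries were chosen with both, so that their signs match here is no independent evidence.

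Several further groups were mixed. Of 27 innate sensor and inflammasome genes 12 were higher and 6 lower. The bacterial RNA sensor Tlr13 rose by 2.42 ± 0.18 (adjusted p = 1.89e-05) and Tlr6 by 1.85 ± 0.22 (adjusted p = 0.000186). The lower members were those of epithelium: Gsdmc2, Gsdmc3, Gsdmc4, Il18, Nlrp6 and Tlr5. Nlrp6 was not called without inflamed replicate 1 or 2, and Tlr5 not without any of inflamed replicates 1, 2, 3, 4 and 6 or non-inflamed replicates 1, 2 and 6. Gsdmc3, a gasdermin of surface epithelium, had 4.08, 11.9 and 32.2 CPM in inflamed libraries, against 80.3, 173 and 397 CPM in non-inflamed ones (-3.7 ± 0.4, adjusted p = 0.000107); the 3 gasdermin C genes are close copies of each other. Of 27 genes of the unfolded protein response and chaperones 10 were higher and 1 lower, with 3 higher without inflamed replicate 2 or 6 or non-inflamed replicate 6, 6 without non-inflamed replicate 2 and 2 with the Y-linked term. Hspa1a, the lower one, was not called without any of inflamed replicates 1, 2, 3, 5 and 6 or non-inflamed replicates 1 and 6, and 2 and 3 were lower without non-inflamed replicates 4 and 5. Atf4 rose by 0.77 ± 0.16 (adjusted p = 0.00417) and Creld2 by 1.12 ± 0.26 (adjusted p = 0.00859). Of 17 circadian clock genes 0 were higher (2 without non-inflamed replicate 3) and 4 lower, and 1 or 2 were lower without any of non-inflamed replicates 1, 2 and 6 or inflamed replicates 1, 2, 4 and 6. Nr1d1, the REV-ERBα repressor, had 30.2, 37.6 and 45.9 CPM in inflamed libraries, against 70.1, 118 and 189 CPM in non-inflamed ones (-1.59 ± 0.28, adjusted p = 0.00161). The hour at which each mouse was killed is not given in the sources used here. Of 6 Paneth cell genes tested 3 were higher: Mmp7, Lyz1 (3.5 ± 0.53, adjusted p = 0.000968) and Pla2g2a (3.08 ± 0.54, adjusted p = 0.00211). The other 3 did not pass. The whole list summed to 206, 426 and 638 CPM in inflamed libraries and 20.4, 112 and 1780 CPM in non-inflamed ones, so its sums overlapped. Mmp7 and Pla2g2a are also on the matrix and the epithelial antimicrobial lists. Pigr, which carries immunoglobulin across the epithelium, fell by 0.93 (SE 0.14, adjusted p = 0.000688).

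The remaining genes with the highest and lowest fold changes were single genes of varied function. Tff1, a trefoil peptide normally of stomach, had 1.63, 3.18 and 7.61 CPM in inflamed libraries and no count in non-inflamed ones, which makes it at least 119-fold higher over the pooled counts. Mptx1, a mucosal pentraxin, had 1.98, 14.8 and 209 CPM in inflamed libraries, against 1810, 2990 and 9810 CPM in non-inflamed ones (-6.28 ± 0.78, adjusted p = 0.00028), which made it the lowest of all. Slc30a10, a manganese exporter, had 0, 0.254 and 4.38 CPM in inflamed libraries and 21.2, 25.2 and 42.4 CPM in non-inflamed ones (-5.89 ± 0.9, adjusted p = 0.000973). Tgm3, a transglutaminase, had 12.1, 38.1 and 87.4 CPM in inflamed libraries and 710, 1670 and 2670 CPM in non-inflamed ones (-4.94 ± 0.59, adjusted p = 0.000209). Both were lower in every inflamed library than in any non-inflamed one. Sycn, syncollin, a secretory granule protein also made by distal colonocytes, fell by 4.91 (SE 0.86, adjusted p = 0.00213), although it sits on the pancreatic list too. Rims4 fell by 5.42 (SE 0.47, adjusted p = 3.65e-05) and Minar1 by 4.89 (SE 0.71, adjusted p = 0.000536). Rfc1 was listed among the 10 lowest as well (-5.88 ± 1.98, adjusted p = 0.0442), but its groups overlapped, at 0, 20.8 and 47.8 CPM in inflamed libraries and 10, 22.2 and 39.2 CPM in non-inflamed ones, and its call was lost in each fit without 1 library except that without non-inflamed replicate 5, where it was -11.53.

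The same contrast under vehicle allows a test of whether the inhibitor changed the effect of inflammation. Of 15293 genes tested with edgeR over 22 libraries, 0 differed between treatments after adjustment (0%), and 237 (1.55%) had an unadjusted p under 0.05. DESeq2 called 8 genes and limma-voom 1. A difference that misses this threshold does not show that the effects were alike. With vehicle, 1444 genes were higher (9.44%) and 1383 lower (9.04%) in inflamed colon by the same threshold, with 5 inflamed libraries against 5 non-inflamed ones. Non-inflamed vehicle replicates 1, 2 and 4 were in batch 1, and 6 and 7 in batch 4. Inflamed vehicle replicate 1 was in batch 3, and 2, 4, 5 and 6 in batch 4. Only batch 4 thus held both vehicle groups, and vehicle libraries of other batches were compared through the batch term. Inflamed vehicle replicate 3 was left out of this fit, since it held small intestinal transcripts; with it, 0 genes differed too.

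Genes downstream of MK2 had wide intervals for this difference. For Tnf the log2 fold change was 3.31 with inhibitor and 2.75 with vehicle, a difference of 0.43 in the joint fit with a 95% interval of -1.88 to 2.75. For Il1b it was 4.23 with inhibitor and 4 with vehicle (difference 0.21, interval -1.98 to 2.41), and for Cxcl1 3.12 with inhibitor and 3.65 with vehicle (difference -0.55, interval -3.27 to 2.17). Ptgs2 rose by 1.72 with inhibitor and 1.29 with vehicle (difference 0.32, interval -0.7 to 1.34). Ifng rose by 4.67 with inhibitor and 3.5 with vehicle (difference 1.03, interval -1.76 to 3.82). Each interval spans 0 and also holds differences of 2-fold in either direction, apart from that of Ptgs2 below 0. Of 18 AU-rich cytokine genes 15 were higher with inhibitor and 13 with vehicle, with medians of 3.09 with inhibitor and 2.9 with vehicle.

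Single genes with small unadjusted p in this test did not pass adjustment. Mmp7 had a log2 fold change of 7.47 with inhibitor and 2.55 with vehicle (difference 4.72, interval 1.32 to 8.11, unadjusted p = 0.00907, adjusted p = 1). Its level was 96.7 ± 79.5 CPM in inflamed vehicle libraries and 17.9 ± 36.6 CPM in non-inflamed vehicle ones (SD, n = 5 each). Of the 5 genes with the smallest p, Nrn1, neuritin, averaged 0.16 CPM in inflamed and 1.73 CPM in non-inflamed libraries with inhibitor, and 1.09 CPM in inflamed and 1.89 CPM in non-inflamed ones with vehicle, where the fold change fitted with batch was 0.83 (difference -3.82, unadjusted p = 7.35e-05, adjusted p = 1). Sec11c, a signal peptidase subunit, averaged 11.2 CPM in inflamed and 3.92 CPM in non-inflamed libraries with inhibitor, and 6.36 CPM in inflamed and 8.11 CPM in non-inflamed ones with vehicle, with a fitted fold change of 0.34 (difference 1.79, unadjusted p = 0.000895, adjusted p = 1). The mitochondrial transcript mt-Nd6 averaged 21.5 CPM in inflamed and 35.3 CPM in non-inflamed libraries with inhibitor, and 6.76 CPM in inflamed and 44.8 CPM in non-inflamed ones with vehicle (difference 1.22, unadjusted p = 0.000611, adjusted p = 1). Zdhhc1 and the T cell receptor segment Trbv1 made up the 5; Zdhhc1 was at 0 CPM in all 5 inflamed vehicle libraries.

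**Figure D5:**
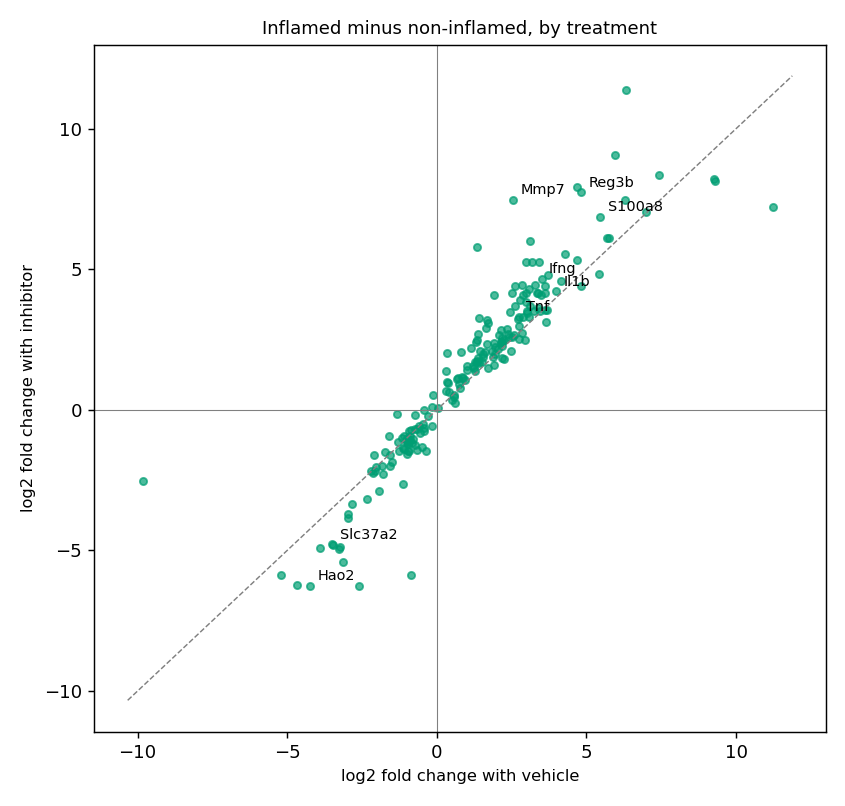
Log2 fold change, inflamed minus non-inflamed, of the genes named in the text, with inhibitor (vertical) against vehicle (horizontal), and the line of equal values. Mmp7 lies farthest above the line among the labelled genes, at 7.47 with inhibitor and 2.55 with vehicle, and no gene's difference passed adjustment. Fitted values of genes without a count in a group, such as Reg3a and Zdhhc1, are drawn but are no measure of size.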

How the data were processed

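Poly-A selected, strand-specific RNA-seq libraries were compared, 6 inflamed and 6 non-inflamed, with inhibitor. Per the submitters' processing notes, the authors used Salmon 0.14.1 and DESeq2 (version not given in the sources used here) with builds mm10 and GRCm38. The deposited table holds expected counts per gene (29720 genes, of which 29395 identifiers matched a name); they were rounded to whole numbers. A second table deposited by the authors holds their normalized values (signal) and was used only as an alternative, on the log2(value + 1) scale.

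Genes with low counts were filtered with filterByExpr, libraries scaled by TMM and tested with edgeR 4.0.16 in R 4.3.3 (glmQLFit, robust; group and batch as terms; two-sided; Benjamini-Hochberg over all 14275 genes). A standard error is the log2 fold change divided by the square root of its F statistic. The difference between treatments was tested in 22 libraries. The pipeline was tested on simulated counts. Alternatives used limma 3.58.1, DESeq2 1.42.0 and other choices given in the closing section. Reads carry no molecular identifiers, so floors of 3 counts cover counting error only. Promoters are from RefSeq (GRCm38.p6).

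Gene names in the text are 12 fixed genes, the 3 called members with the smallest p of each list described, the genes called with the most extreme fold changes (10 up, 10 down; average of 1 CPM or more), and the 5 smallest p of the treatment difference; other names were chosen after their values were seen. Members and lists were chosen with earlier results of these data known. No 2 replicates agreed within sampling noise. Deviations of same-numbered libraries of the 2 groups correlated at 0.239 and 0.111 for replicates 5 and 6 and below 0 for the rest. Whether the numbers mark pairs is not known, and they were not used as pairs in the main fit. The series text gives 24 h of treatment, the protocol 16 h plus 90 min. Some named genes, although chosen by this rule or counted in a list, are not reported here.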

Additional observations from a re-analysis of the deposited data

Results flagged for a closer look

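A sample was singled out where, among the 6 libraries of a group, its gap to the nearest other on the log2(CPM + 0.5) scale as a share of the group's range passed Dixon's 95% critical value. Of 401 pairs of gene and group tested, 35 met this, and chance gives about 1 in 20. Non-inflamed replicate 5 accounted for 20 high and 2 low values, and other libraries for 13.

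High values of non-inflamed replicate 5 were in genes of myeloid cells and inflammation: Csf1r at 63.9 CPM, Icam1 at 52.7 CPM, Cybb at 49.3 CPM, S100a8 at 41.6 CPM, Lcn2 at 33.1 CPM, S100a9 at 32.6 CPM, Itgam at 17.0 CPM, Cd68 at 14.0 CPM, Hmox1 at 14.0 CPM, Ncf1 at 11.8 CPM and Il1b at 11.7 CPM. Lower levels stood apart in the same library for Il10ra at 7.83 CPM, Tlr13 at 6.64 CPM, Tbxas1 at 5.17 CPM, Ly6c2 at 4.13 CPM, Fpr2 at 2.21 CPM, Egr2 at 1.62 CPM, Il22 at 1.18 CPM, Il1a at 0.886 CPM and Gzmf at 0.148 CPM. It was low in Sycn at 231 CPM and Sec11c at 0.886 CPM. It is the only non-inflamed library of batch 3 with inhibitor, so batch and library cannot be told apart in it.

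In other non-inflamed libraries, replicate 4 was high in Nlrp6 at 403 CPM, Fasl at 0.943 CPM and Gzmk at 0.707 CPM. Replicate 2 was high in Lgr5 at 13.3 CPM, and replicate 1 was high in Trbv1 at 0.0536 CPM and low in Usp18 at 1.39 CPM. Replicate 6 was low in Slc27a2 at 2.49 CPM and Ptgs2 at 0.868 CPM. Among inflamed libraries, replicate 3 was high in Ncf1 at 59.2 CPM, Ehhadh at 36.2 CPM and Slc37a2 at 22.6 CPM and low in Il1b at 18.1 CPM, and replicate 6 was low in Cd28 at 4.64 CPM.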

How the results depend on the processing

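Of 4567 genes called, 2249 higher and 2318 lower, the count moved by over 1.5 times as follows, and the cause was not tested. Limma-voom with quality weights called 7461 (3816 higher, 3645 lower), a test against a minimum change of 2-fold 844 (643 higher, 201 lower) and batches 3 and 4 alone 0 (0 higher, 0 lower). Chosen after seeing the data, leaving out the 3 libraries with pancreatic transcripts gave 3032 (1487 lower) and a term for Y-linked transcripts 2984 (1455 lower). With all 4 groups in the fit, 1487 were lower. Leaving out 1 library gave 2698 to 6427 called, 1397 to 3247 higher and 1296 to 3180 lower. Between treatments 0 genes differed, against 8 with DESeq2, 1 with limma-voom and 1 without a count filter.

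A replicate block in place of batch gave 2625 calls (1410 higher, 1215 lower) and one with batch 2664 (1417 higher, 1247 lower). Whether the replicate numbers mark pairs is not known: 2 of 6 pairs correlated over 0.1 in their deviations, and 1 matched its own number best. After batch was removed, 0 correlated over 0.1. With 1 library per group in batch 4, the replicate 6 pair is then forced to -1, so that step cannot show pairing there.

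Of 198 genes named and tested, 184 were called and 170 kept the call without any 1 library. The genes that changed sign were not called. Without a batch term, Fos was -0.05, Ly6g -0.11 and Mki67 0.28; within batch 1, Fos was -0.04, Col1a1 -0.02 and mt-Nd6 0.14; within batches 3 and 4, Mki67 was 0.04 and Muc2 0.26. With the replicate block in place of batch, Ly6g was -0.08 and Mki67 0.25, and with block and batch Mki67 was 0.04 and Muc2 0.25. In the normalized table Col1a1 was -0.21 and Ly6g -0.07. Mki67 was 0.02 with limma-voom and 0 without a filter. Without pancreatic libraries Fos was -0.02, Mki67 0.11 and mt-Nd6 0.04, and with the Y-linked term Mki67 was 0.1 and Muc2 0.22. Without 1 library, Fos ranged from -0.02 to 0.22, Ly6g from -0.17 to 0.32, Mki67 from -0.2 to 0.17, Muc2 from -0.46 to 0.11 and mt-Nd6 from -0.49 to 0.01.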
